A study of Homo sapiens with 15 samples.

Results

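The Notch pathway passes signals between touching cells. The members described here are 10 genes of that pathway: the receptors NOTCH1, NOTCH2 and NOTCH3, the ligands DLL1, DLL3, JAG1 and DLK1, the coactivators MAML2 and MAML3, and MFNG, an enzyme that modifies the receptors. They were chosen by gene symbol: every probe set of the expression array with exactly 1 gene symbol in the platform annotation, that symbol being one of the 10, was taken. This gave 30 of the 54675 probe sets on the array. Of the 30, 17 were bright enough to be tested, and each of the 10 genes had at least 1 of these.

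RNA of IMR32 cells, an established human neuroblastoma line, was hybridised to Affymetrix arrays. The cells had been transfected with MSX1 in a form that doxycycline induces. MSX1 is a homeodomain transcription factor. Of the 15 arrays, 3 each belong to 5 groups: the start of the course (t = 0), cells induced with doxycycline until t = 8, until t = 24 or until t = 48, and control cells kept without the drug until t = 48. Cells of all 5 groups carried the MSX1 construct, the labels give no unit of time, and no group received doxycycline without the construct, so effects of the drug and of MSX1 cannot be told apart. Whether replicates were separate cultures or clones is not stated, and the spread behind each p-value is that between these arrays, which may be technical.

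A Notch receptor is cut when it binds a ligand of the Delta (DLL) or Jagged (JAG) family on a neighbouring cell. Its freed inner part moves to the nucleus and joins the DNA-binding protein RBPJ and a Mastermind-like (MAML) coactivator to switch on targets such as the HES and HEY repressor genes. Fringe enzymes, of which MFNG is one, add sugars to the receptor that alter its response to the ligand families, and DLK1 is a ligand-like protein without the domain by which classical ligands bind. In the developing nervous system the pathway holds progenitor cells back from becoming neurons.

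Trimmed means of signal were 100.01 on all arrays, and medians lay between 18.1 and 22.6. A hybridisation control (bioC) was weak on induced t = 24 replicate 1 and induced t = 48 replicate 3, at 93.4 and 104.8, against 391 to 491.5 elsewhere. The 3' to 5' signal ratio of ACTB, a sign of RNA integrity, was between 1.27 and 1.52 in induced cells at t = 48, against 1.22 to 1.31 in control cells at that time. MSX1 itself read 83.2 ± 14.7 in induced and 50.7 ± 4.52 in control cells at t = 48 (SD, n = 3 each) on its leading probe set (0.65, limma adjusted p = 0.0278). Both means were below t = 0, but the induced cells overlapped t = 0 and their difference did not pass (-0.40, limma adjusted p = 0.104). On that probe set MSX1 had read 111 ± 13.6 at t = 0, 161 ± 22.1 in induced cells at t = 8 (0.51 over t = 0, limma adjusted p = 0.192) and 165 ± 20.7 at t = 24 (0.55 over t = 0, limma adjusted p = 0.0491). From t = 24 to t = 48 MSX1 fell by 0.96 in induced cells (limma adjusted p = 0.00439), and in control cells it fell by 1.05 between t = 0 and t = 48 (limma adjusted p = 0.0116). Its dimmer probe set read 13.2 ± 6.06 in induced and 20.1 ± 9.93 in control cells at t = 48 (-0.42, limma adjusted p = 0.45). Against its 30.4 ± 5.39 at t = 0, induced cells differed by -0.31 at t = 8 (limma adjusted p = 0.906) and -0.41 at t = 24 (0.461). At t = 48 induced cells differed from t = 0 by -0.99, which passed (0.0468, no overlap), and control cells by -0.57 (0.624). The probe sets thus disagreed. Whether either covers the transfected MSX1 is not given in the sources used here. Of 8 listed adrenergic neuroblastoma markers, 6 were measured here, and their summed signal lay between 4860 and 5658 on every array. Of the 5 with a testable probe set, PHOX2A rose (0.70) and ISL1 fell (-1.20, limma adjusted p = 0.0131) in induced against control cells at t = 48, and DBH differed by -0.96 without passing (limma adjusted p = 0.195). Summed markers of blood (5.5 to 34.9), Schwann cells (11.6 to 40.3), endothelium (41.2 to 81.4) and epithelium (34.3 to 83) were low throughout.

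The leading probe set of a gene is its testable probe set with the highest mean level. In the text, a signal is the deposited intensity, and a difference is on the log2(signal + 5.16) scale, which understates the change of dim genes. A fold is 2 to the power of that difference, so it is not the ratio of the signals. A probe set rose or fell where limma gave an adjusted p under 0.05 over all 30676 testable probe sets. At t = 48, 3 of the 17 member probe sets were called in induced against control cells (5.13% of all testable probe sets), 2 higher (3.39% of all) and 1 lower (1.74% of all). Against t = 0, 4 of 17 were called in induced cells at t = 8 (1.11% of all), 3 higher (0.554%) and 1 lower (0.551%). At t = 24 it was 7 of 17 (6.08% of all), 5 higher (3.7%) and 2 lower (2.38%), and at t = 48 it was 6 of 17 (11.4% of all), 5 higher (6.84%) and 1 lower (4.59%). In control cells 2 of 17 were called at t = 48 against t = 0 (0.326% of all), both higher (0.186%). Between induced times, 1 of 17 was called for t = 24 over t = 8 (2.38% of all), higher (1.53%), and 3 of 17 for t = 48 over t = 24 (2.25% of all), all higher (1.28%). The comparisons with t = 0 share its 3 arrays. A probe set was testable where it reached the array median on at least 3 arrays, and of the 17, JAG1 216268_s_at and MAML3 228508_at did so on induced arrays alone and NOTCH2 202443_x_at on control arrays alone. JAG1 209099_x_at did so on every induced array, on 1 control array and on no t = 0 array, so it too was testable only through the induced groups. All of these entered through the groups where they are high, so the counts are a description and support no statement about the members as a set. With only the arrays of the groups compared in the fit, each of the calls at t = 8 was lost, as were those of DLL1, JAG1 and DLL3 at t = 24 (limma adjusted p 0.0663 to 0.0773). Probe sets of 1 gene are not independent, and the array does not tell fewer cells expressing a gene from less RNA per cell.

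**Figure D1:**
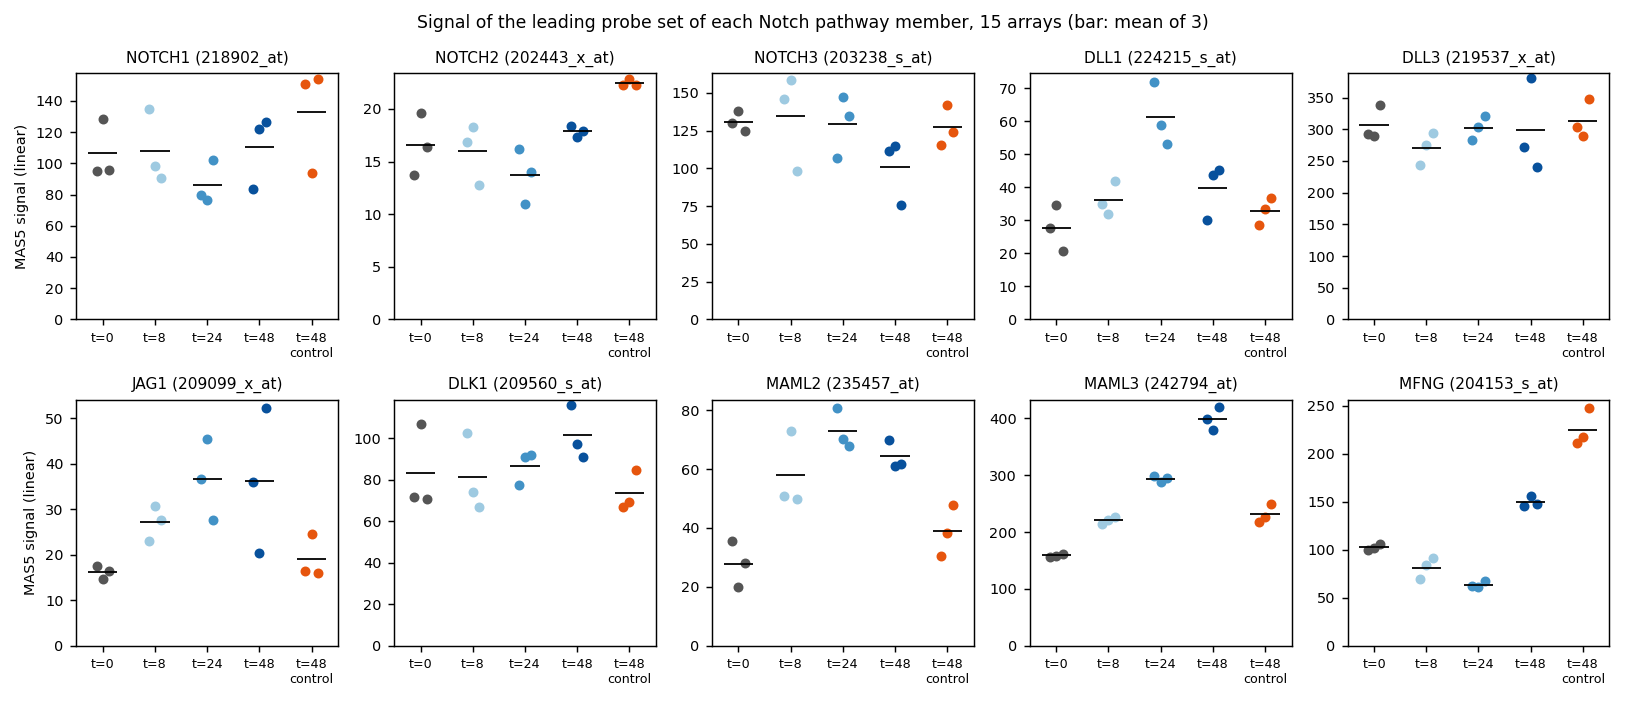
Deposited signal (linear scale, vertical axes from 0) of the leading probe set of each of the 10 genes on all 15 arrays, by group; points are arrays and bars are means of 3. MAML3 climbs from group to group in induced cells to 399.5 at t = 48, and MFNG dips to 63.5 at t = 24 and is highest in control cells.

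MAML3, a Mastermind-like coactivator that bridges the Notch and RBPJ complex to the transcription machinery, showed the most regular course of the members. On its leading probe set, 242794_at, the signals were 156.8, 158.4 and 162.2 at t = 0. They were 214.5, 221.7 and 227.1 in induced cells at t = 8, then 297.8, 288.1 and 295 at t = 24 and 399.3, 379.2 and 420.1 at t = 48. Control cells at t = 48 gave 217.4, 226.8 and 249.5. All 3 induced arrays at t = 48 thus lay above all arrays of every other group, and the ranges of the 4 points of the course did not overlap.

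At t = 48, MAML3 rose 1.71-fold in induced over control cells (difference 0.78, SE 0.08, limma adjusted p = 0.000109). Against t = 0, the difference in induced cells was 0.46 at t = 8 (adjusted p = 0.0116), 0.86 at t = 24 (3.68e-05) and 1.30 at t = 48 (1.11e-06). MAML3 also rose in control cells, by 0.52 between t = 0 and t = 48 (adjusted p = 0.0136), so a rise was also present without the drug. Control cells at t = 48 and induced cells at t = 8 overlapped. The later steps in induced cells were 0.40 for t = 24 over t = 8 (adjusted p = 0.0189) and 0.44 for t = 48 over t = 24 (adjusted p = 0.00952).

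The call against control cells and those against t = 0 at t = 24 and t = 48 held in every alternative run. The call at t = 8 was lost without t = 0 replicate 1 (adjusted p = 0.0512) or induced t = 8 replicate 3 (0.0501), that in control cells without t = 0 replicates 1 or 2 (0.0703 and 0.0611) or control replicates 2 or 3 (0.0598 and 0.0916), and that from t = 8 to t = 24 without any array but induced t = 8 replicate 3 (0.0507 to 0.0718). Without both arrays with weak hybridisation controls, that call (0.0551) and the one from t = 24 to t = 48 (0.0636) were lost. With arrays centred on their medians, the calls at t = 8, in control cells and at both later steps were lost (limma adjusted p 0.174 to 0.204). The same calls were lost with no filter (0.0563 to 0.0953) and with only the groups compared in the fit (0.148 to 0.248). The other MAML3 probe sets were dim: 228508_at read 15.3, 20.1 and 22.2 in induced and 3.4, 7.4 and 1.3 in control cells at t = 48, a difference of 1.45 that did not pass (adjusted p = 0.0869), and 207946_at gave -0.15 (adjusted p = 0.905).

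MAML2, a second coactivator of the family, was already high early. Its leading probe set, 235457_at, read 35.5, 19.9 and 28.2 at t = 0 and 50.9, 73.1 and 50 in induced cells at t = 8. It read 80.6, 70.1 and 68 at t = 24 and 69.9, 61.1 and 61.9 at t = 48 in induced cells, against 30.6, 38.4 and 47.8 in control cells at t = 48. Every induced array lay above every t = 0 and control array. MAML2 rose against t = 0 at t = 8 (0.94, SE 0.19, adjusted p = 0.0353), t = 24 (1.27, adjusted p = 0.00187) and t = 48 (1.10, adjusted p = 0.00368).

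The difference of MAML2 from control cells at t = 48 was 0.67 (95% interval 0.25 to 1.09) and did not pass over all probe sets (adjusted p = 0.0662); with 1 probe set per gene in the fit it did (0.0475). The call at t = 8 was lost without t = 0 replicates 2 or 3, or without any 1 of the induced t = 8 arrays (adjusted p 0.0615 to 0.145). It was also lost with arrays centred on their medians (limma adjusted p = 0.114), quantile normalization (0.0566) or no filter (0.0886). With the replicate number as a block (0.0809) or only the groups compared in the fit (0.298) it was lost too.

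JAG1 encodes a Jagged-family ligand of the Notch receptors. Its probe set 216268_s_at read 8.3, 11.6 and 16.6 at t = 0. In induced cells it read 24.5, 32.7 and 25.6 at t = 8, 34.1, 36.7 and 25.8 at t = 24 and 32.2, 31.2 and 33.2 at t = 48. Control cells at t = 48 read 10.7, 13.3 and 15.7. The 9 induced arrays lay above all t = 0 and control arrays. They were also the 9 arrays on which this probe set reached the array median, so it was testable through the induced groups alone. Neither later step in induced cells passed, with 0.19 for t = 24 over t = 8 (limma adjusted p = 0.608) and 0.01 for t = 48 over t = 24 (0.992).

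On this probe set JAG1 rose 2.04-fold in induced over control cells at t = 48 (1.03, SE 0.18, limma adjusted p = 0.00503; 0.0149 with no filter), measured against control signals below the array median. It also rose against t = 0 at t = 8 (0.94, adjusted p = 0.0213), t = 24 (1.12, adjusted p = 0.00219) and t = 48 (1.14, adjusted p = 0.00162), while in control cells the difference of t = 48 from t = 0 was 0.11 (95% interval -0.28 to 0.49). The leading probe set of JAG1, 209099_x_at, has an ending that marks probe sets that can also bind other transcripts. This probe set had wider spread, at 36, 20.3 and 52.2 in induced and 16.3, 24.5 and 16 in control cells at t = 48. Its difference of 0.72 did not pass (adjusted p = 0.128) but did without induced t = 48 replicate 2 (0.0259), and it rose against t = 0 at t = 24 (0.95, adjusted p = 0.0455) and t = 48 (0.88, adjusted p = 0.0422).

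These last calls of 209099_x_at were lost in most repeats that left out 1 array (without any t = 0 array, induced t = 24 replicates 1 or 2, or induced t = 48 replicates 1 or 3; adjusted p 0.0742 to 0.154), and the call of 216268_s_at at t = 8 without t = 0 replicates 1 or 2 or induced t = 8 replicates 2 or 3 (0.0549 to 0.0987). With no filter, the calls of 209099_x_at (0.105 and 0.0901) and that of 216268_s_at at t = 8 (0.0597) were lost, while those of 216268_s_at at t = 24 (0.00702) and t = 48 (0.00514) were not. Without both arrays with weak hybridisation controls, the calls of 209099_x_at were lost as well (0.0667 and 0.156). With arrays centred on their medians, the calls of 209099_x_at (limma adjusted p 0.0743 and 0.0671) and that of 216268_s_at at t = 8 (0.0601) were lost too. All JAG1 signals were dim, below the array median on 5 of 15 arrays for 209099_x_at and 6 of 15 for 216268_s_at. The 6 were all t = 0 and control arrays, and the 5 were all of these but 1 control array. Thus 209099_x_at too would not have been testable without the induced groups. The size of the change depends on the offset, from 0.72 to 1.24 for 216268_s_at against control cells over the alternatives.

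MAML2, MAML3 and JAG1 were the genes with a probe set that rose against t = 0 at each of t = 8, t = 24 and t = 48, and their promoters are shown for that reason. JAG1 met this rule only on its dimmer testable probe set, which was testable through the induced groups alone. The leading probe set of JAG1 did not pass at t = 8 (0.59, limma adjusted p = 0.527). The share of all genes that meet the same rule is not given, so the choice of these genes is a description. The windows, from RefSeq on GRCh38.p14, run from 250 bases before to 50 after the gene's start, and 6 of the 10 members had one. Capitals mark TAAT on either strand (ATTA on the other), the core shared by many homeodomain binding sites, MSX1's included. JAG1 lies at chr20:10673950-10674249, minus strand, MAML2 at chr11:96343146-96343445, minus strand and MAML3 at chr4:140154135-140154434, minus strand.
JAG1: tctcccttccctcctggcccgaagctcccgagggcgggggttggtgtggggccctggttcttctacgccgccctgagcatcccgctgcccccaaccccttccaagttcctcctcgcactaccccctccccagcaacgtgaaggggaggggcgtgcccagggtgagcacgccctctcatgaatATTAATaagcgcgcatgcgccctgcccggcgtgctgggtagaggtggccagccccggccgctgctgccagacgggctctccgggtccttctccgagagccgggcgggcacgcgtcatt
MAML2: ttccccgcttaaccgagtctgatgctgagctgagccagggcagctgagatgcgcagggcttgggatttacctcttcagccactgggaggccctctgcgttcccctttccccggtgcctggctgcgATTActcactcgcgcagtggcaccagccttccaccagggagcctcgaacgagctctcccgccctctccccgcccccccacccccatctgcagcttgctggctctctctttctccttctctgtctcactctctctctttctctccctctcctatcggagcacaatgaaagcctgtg
MAML3: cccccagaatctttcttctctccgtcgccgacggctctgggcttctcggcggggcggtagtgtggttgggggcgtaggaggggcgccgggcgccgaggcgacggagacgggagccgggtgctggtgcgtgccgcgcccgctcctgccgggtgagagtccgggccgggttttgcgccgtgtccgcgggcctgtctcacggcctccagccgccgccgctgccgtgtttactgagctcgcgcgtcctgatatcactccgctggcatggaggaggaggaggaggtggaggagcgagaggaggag
In JAG1 the match lies on both strands, overlapping, at positions -68 to -63 from the gene's start, in MAML2 it lies at -125 to -122, and in MAML3 there is none in this window. TAAT is found in 42.7% of 22198 promoters of protein-coding genes, so its presence in 2 of 6 member windows is a description of these letters only. The longer motif TAATTG, searched on both strands, is in 5.88% of those promoters, and a core of RBPJ sites, TGGGAA, is in 22.7%. Neither was in any of the 6 windows, which says only that these letters are not there.

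**Figure D2:**
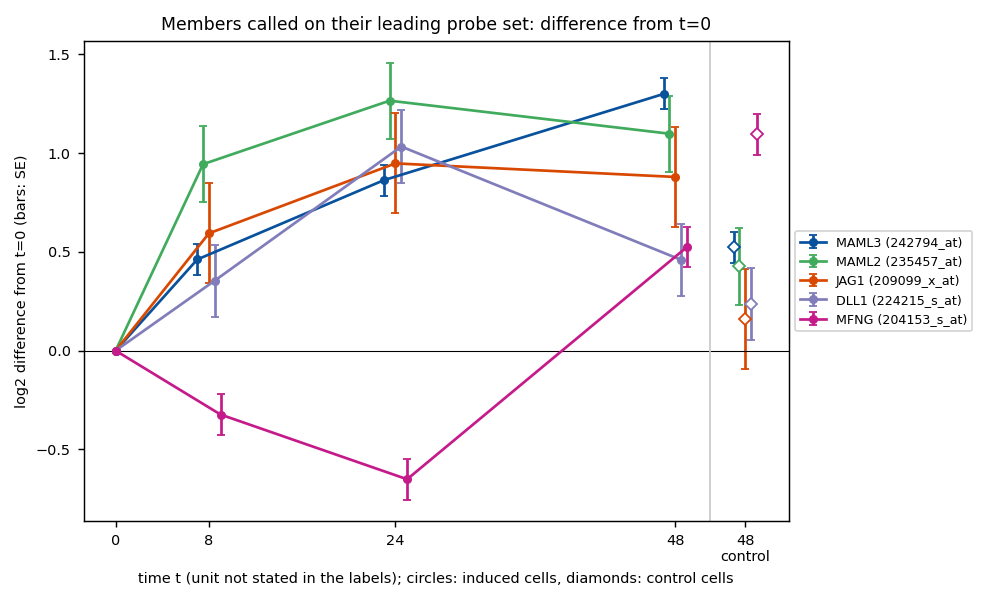
Difference from t = 0 (log2(signal + 5.16) scale, vertical axis; bars are SE of the limma fit, n = 3 arrays a group) against time t (unit not stated, points shifted slightly sideways) for the 5 genes called in at least 1 comparison on their leading probe set; DLL3, called on another probe set, is not drawn; circles are induced and diamonds control cells. MAML3 keeps rising to 1.30, DLL1 is highest at t = 24, and MFNG is below t = 0 at t = 24 and above it at t = 48.

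DLL1, a Delta-family ligand, was highest at t = 24. Its leading probe set, 224215_s_at, read 27.6, 34.5 and 20.7 at t = 0, then 35.1, 31.9 and 41.9 at t = 8, 72, 58.8 and 53.2 at t = 24 and 30.2, 43.7 and 45.4 at t = 48 in induced cells. Control cells at t = 48 read 28.7, 33.5 and 36.7. The 3 arrays at t = 24 lay above the other 12. DLL1 rose 2.05-fold at t = 24 against t = 0 (1.03, SE 0.18, adjusted p = 0.0052), while the differences of t = 24 from t = 8 (0.68, adjusted p = 0.0741) and of t = 48 from t = 24 (-0.57, adjusted p = 0.172) did not pass. At t = 48 induced and control cells overlapped (0.22, 95% interval -0.17 to 0.62).

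DLL3 is a Delta-family member known for inhibiting Notch signalling within the cell that makes it, and its probe sets disagreed. On 222898_s_at it read 151.9, 143.4 and 172.2 at t = 0. Induced cells read 94.5, 90.4 and 100.4 at t = 8, 107.1, 101.3 and 94.7 at t = 24, and 117.1, 115.1 and 121.6 at t = 48, and control cells at t = 48 read 169.2, 154.6 and 129.9. Every induced array lay below every t = 0 and control array. On this probe set DLL3 fell by 0.68 at t = 8 (SE 0.11, adjusted p = 0.00663), the 1 member probe set lower at that time, and by 0.60 at t = 24 (adjusted p = 0.00531) and 0.38 at t = 48 (adjusted p = 0.0358) against t = 0.

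Against control cells at t = 48 the difference on 222898_s_at was -0.34 and did not pass (adjusted p = 0.0889) but did without control replicate 3 (0.0478). The brightest DLL3 probe set, 219537_x_at, gave -0.18 at t = 8 (adjusted p = 0.889), -0.02 at t = 24 (adjusted p = 0.964) and -0.06 at t = 48 (adjusted p = 0.82) against t = 0, with overlapping groups throughout. The remaining DLL3 probe sets, 230568_x_at and 229755_x_at, passed in no comparison; the ending _x_at marks probe sets that can also bind other transcripts. The fall on 222898_s_at at t = 48 was lost without t = 0 replicates 1 or 3 or any 1 of the induced t = 48 arrays (adjusted p 0.0679 to 0.126), and without both arrays with weak hybridisation controls (0.065). It was also lost with arrays centred on their medians (limma adjusted p = 0.0876), no filter (0.101) or the replicate number as a block (0.0579). With only the groups compared in the fit it was lost too (0.101).

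**Figure D3:**
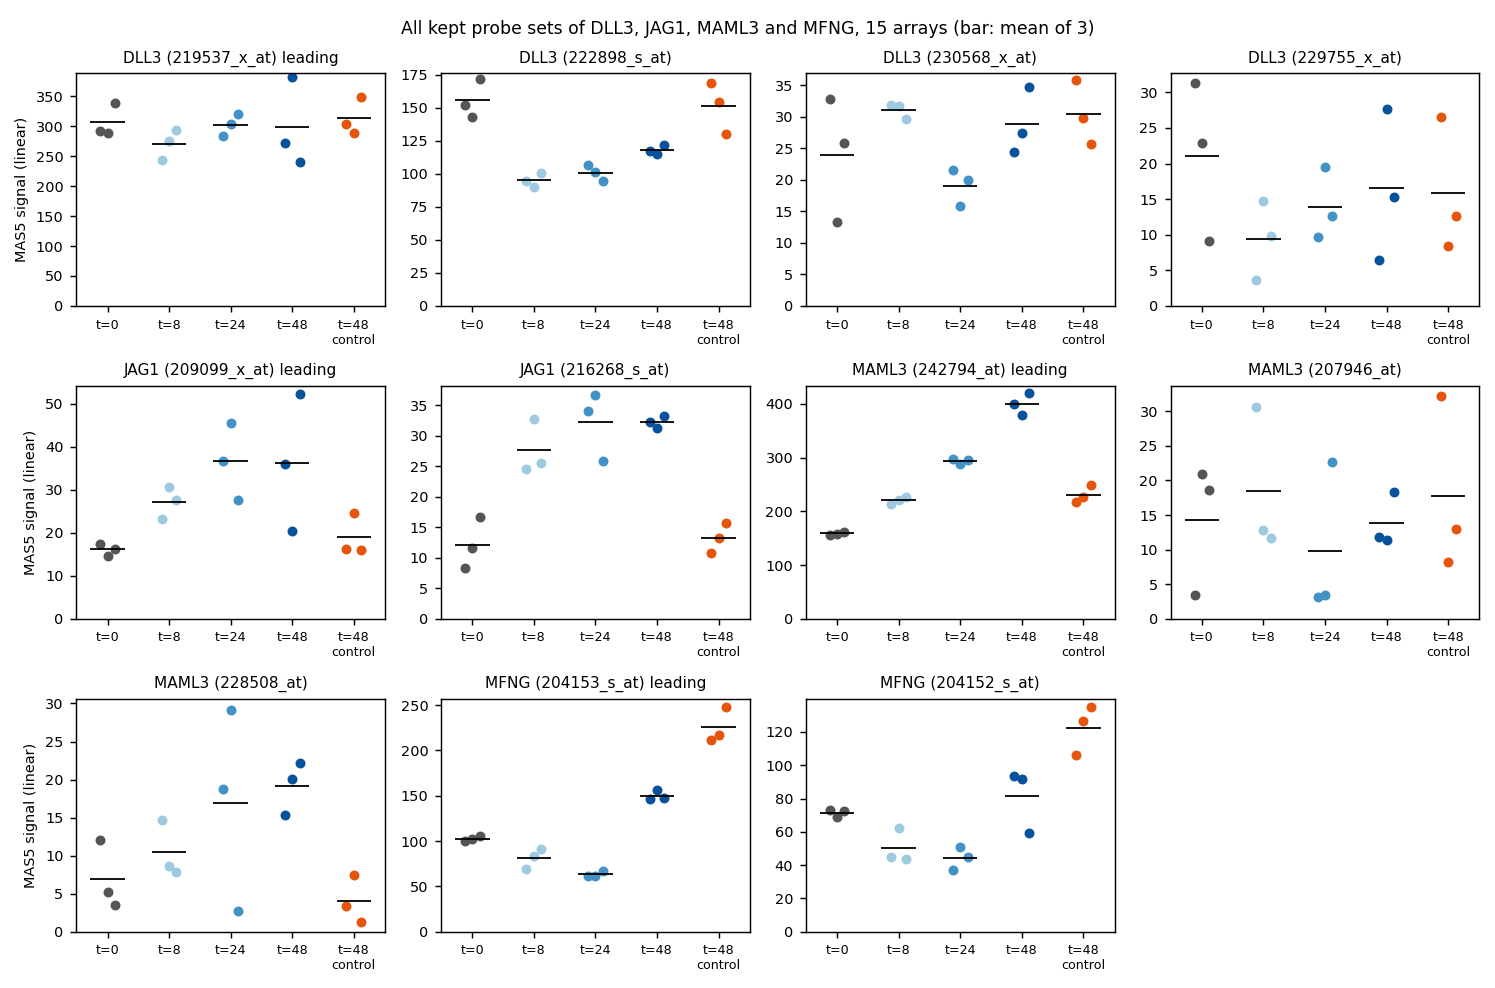
Deposited signal (linear scale, vertical axes from 0) of all testable probe sets of DLL3, JAG1, MAML3 and MFNG on the 15 arrays, by group; points are arrays and bars are means of 3. The 2 probe sets of MFNG and of JAG1 follow like courses, while for DLL3 the induced arrays lie apart from t = 0 on 222898_s_at and overlap it on 219537_x_at.

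DLK1 has been followed in neuroblastoma as a marker of chromaffin-like cells. It read 71.8, 106.9 and 70.9 at t = 0, and 102.8, 74 and 67.1 at t = 8, 77.5, 91.1 and 91.8 at t = 24 and 116.3, 97.5 and 90.9 at t = 48 in induced cells. Control cells at t = 48 read 67, 69.3 and 84.7. At t = 48 the induced arrays lay above the control arrays, but the difference of 0.44 (SE 0.18, 95% interval 0.04 to 0.83) did not pass over all probe sets (limma adjusted p = 0.196), and neither did any difference from t = 0.

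MFNG, Manic fringe, moved in both directions with time. On its leading probe set, 204153_s_at, the signals were 100, 101.8 and 106 at t = 0. In induced cells they were 69.2, 83.9 and 91.2 at t = 8, 61.8, 61.3 and 67.4 at t = 24 and 145.9, 156.2 and 147.5 at t = 48. Control cells at t = 48 read 211.3, 217.5 and 247.4. No 2 groups overlapped, in the rising order t = 24, t = 8, t = 0, t = 48 induced and t = 48 control.

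MFNG fell by 0.65 at t = 24 against t = 0 (SE 0.10, limma adjusted p = 0.00238), while its value of -0.32 at t = 8 missed the threshold (limma adjusted p = 0.262). From t = 24 to t = 48 it rose 2.26-fold in induced cells (1.18, adjusted p = 6.36e-05), to a level above t = 0 (0.52, adjusted p = 0.00685). In control cells it rose 2.14-fold between t = 0 and t = 48 (1.09, adjusted p = 0.00131). At t = 48 MFNG was therefore lower in induced than in control cells (-0.57, SE 0.10, adjusted p = 0.0073). With arrays centred on their medians the last difference (adjusted p = 0.0663) and that of induced t = 48 from t = 0 (0.0807) no longer passed, and with only these groups in the fit the rise in control cells did not (0.136).

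The dimmer MFNG probe set, 204152_s_at, gave differences of the same sign in these comparisons, but those from t = 0 did not pass. They were -0.64 at t = 24 (limma adjusted p = 0.0543), 0.15 in induced cells at t = 48 (0.619, overlapping groups) and 0.73 in control cells (0.167). This probe set read 93.6, 91.5 and 59.5 in induced and 106.2, 126.3 and 134.9 in control cells at t = 48, a difference of -0.58 that did not pass (adjusted p = 0.0846). It passed for t = 48 against t = 24 in induced cells (0.79, adjusted p = 0.0371), a call lost without any induced t = 24 array or without induced t = 48 replicates 1 or 2 (0.0562 to 0.157). That call was also lost with arrays centred on their medians (limma adjusted p = 0.136), quantile normalization (0.0667) or no filter (0.0929). With only the groups compared in the fit it was lost too (0.201).

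**Figure D4:**
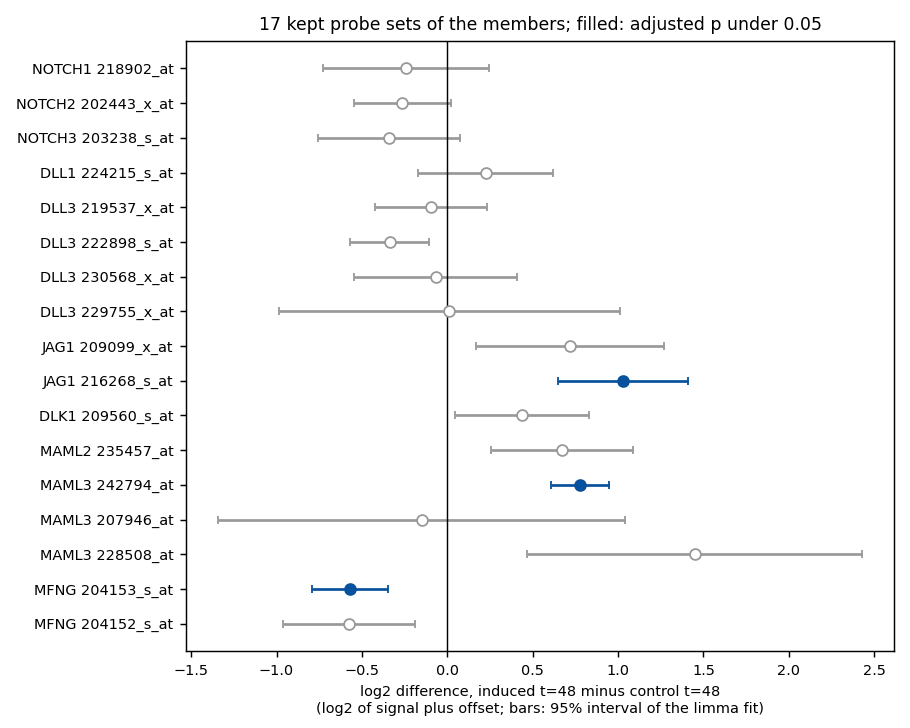
Difference between induced and control cells at t = 48 (horizontal axis, log2(signal + 5.16) scale; positive is higher in induced cells) for the 17 testable member probe sets, with 95% intervals of the limma fit; filled points have an adjusted p under 0.05. JAG1 216268_s_at (1.03) and MAML3 242794_at (0.78) lie above 0 and MFNG 204153_s_at (-0.57) below it.

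The receptors passed in no comparison on their leading probe sets. NOTCH1 read 83.6, 121.7 and 126.5 in induced and 150.8, 93.8 and 153.9 in control cells at t = 48, which overlapped (-0.24, 95% interval -0.73 to 0.24). NOTCH3 read 111.8, 114.8 and 75.5 in induced and 115.5, 142 and 124.2 in control cells at t = 48. These groups did not overlap, and the difference was -0.34 (95% interval -0.76 to 0.08, adjusted p = 0.343). Against t = 0, NOTCH3 differed by -0.38 in induced cells at t = 48 (-0.80 to 0.03, limma adjusted p = 0.215), without overlap. The difference from t = 0 was -0.02 at t = 24 (-0.44 to 0.39) and -0.04 in control cells at t = 48.

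NOTCH2 was dim, at 18.4, 17.3 and 17.9 in induced and 22.3, 22.8 and 22.3 in control cells at t = 48, and reached the array median on 3 of 15 arrays, which were the 3 control arrays. It was testable through that group alone, so the lack of overlap with the induced arrays is given as a description. The difference of -0.26 did not pass (95% interval -0.55 to 0.02, adjusted p = 0.284). The genome holds partial copies of NOTCH2, which its probe set, 202443_x_at, may not tell from it. Over the 7 comparisons the 95% intervals of the receptors reached at most 0.82 above and 0.80 below 0, on the log2 scale, so smaller changes than these are not shown to be absent.

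The 13 member probe sets too dim to be tested were 4 of JAG1, 3 of NOTCH2 and 1 each of NOTCH1, NOTCH3, DLL1, DLK1, MAML2 and MFNG. Their signals lay between 0.3 and 28.9, with medians of at most 11.9. With no filter, limma called 0 of the 13 in the 7 comparisons, and at an unadjusted p under 0.05 it gave 0 to 2 of them.

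A list of 64 further pathway genes, written with earlier results of these data known, had 54 with a testable probe set. Counted by leading probe set, 4 of the 54 passed in induced against control cells at t = 48, all higher, where 6.27% of all 12880 genes were called. The median difference of the 54 was 0.03, against -0.01 for all genes and 0.06 for the 10 member genes. At t = 8, 1 of 54 passed against t = 0, higher (1.47% of all genes), at t = 24, 7 passed, CNTN1 the 1 that fell (7.93%), and at t = 48, 4 passed, all higher (13.8%). In control cells limma called 0 of 54 between t = 0 and t = 48 (0.458% of all genes), and 6 had an unadjusted p under 0.05.

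Among the target genes, HEY1 rose to 871 ± 110 in induced cells at t = 48, against 40.5 ± 2.64 in control cells (SD, n = 3 each; difference 4.25, limma adjusted p = 6.57e-08), and HES1 to 62.8 ± 2.48 against 5.27 ± 3.11 (2.75, adjusted p = 0.000363); these were the 2 of 7 measured targets that passed. The control signal of HES1 lay near the lower quartile of the control arrays (4.5 to 5.9), so it is not shown to be above background. HEY1 was also the 1 pathway gene that rose by t = 8 (2.16, adjusted p = 0.000112). ADAM10, the protease that makes the first cut in a ligand-bound receptor, rose in induced over control cells at t = 48, to 1182 ± 67.5 against 823 ± 18.3 (0.52, adjusted p = 0.00174), as the 1 of 8 measured protease genes. NEURL1, whose protein adds ubiquitin to Notch ligands, rose on dim signals, to 24.4 ± 5.6 against 9.2 ± 0.6 (1.02, adjusted p = 0.0373), the control cells lying below the 21.9 ± 6.13 of t = 0.

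At t = 24 against t = 0, the corepressor genes TLE1 (0.36, adjusted p = 0.0456) and TLE3 (0.61, adjusted p = 0.0355) and FBXW7, whose protein marks the active receptor for destruction (0.49, adjusted p = 0.0459), rose, beside ADAM10, HEY1 and HES1. CNTN1, a contactin that has been described as a Notch ligand, fell to 165 ± 29.9 at t = 24, against 306 ± 20.8 at t = 0 (SD, n = 3 each; -0.89, adjusted p = 0.00646), and was back at 323 ± 52.1 at t = 48 in induced cells. RBPJ read 1203 ± 37.1 in induced and 1164 ± 83.7 in control cells at t = 48, a difference of 0.05 (adjusted p = 0.788). LFNG and RFNG, the other fringe genes, did not pass against control cells, with differences of 1.28 (adjusted p = 0.116) and 0.32 (adjusted p = 0.146).

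Summed markers of fibroblasts were higher on induced than on control arrays at t = 48, and higher on these control arrays than at t = 0. At t = 48 the summed signal of 8 of them lay between 2059 and 2091 on the induced arrays, against 1523 to 1621 on the control arrays, after 1205 to 1360 at t = 0, 1625 to 1837 at t = 8 and 2480 to 2546 at t = 24. Of 7 with a testable probe set, 2 rose against control cells at t = 48, COL3A1 (1.06) and LUM (2.53). COL1A1 (0.42, limma adjusted p = 0.133), PDGFRA (0.40, limma adjusted p = 0.0592), PDGFRB (-0.04), DCN (-0.20) and THY1 (-0.31) did not pass. At t = 24 against t = 0, COL1A1 (1.38), COL3A1 (1.05), LUM (3.48) and PDGFRA (0.68) rose. The part of these genes in the rises of MAML2, MAML3, JAG1 and DLL1 was not tested.

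The profiles most like those of the members over the 15 arrays, by Pearson correlation of log2 levels, are given as a description, since 3 arrays of each group share a condition. MAML3 was closest to GPR155 (r = 0.99), MBNL2 (0.98) and SCN3A (0.97), and MFNG to DIRAS3 (0.98), IGSF1 (0.96) and HSPA12A (0.96). MAML2 was closest to IRS1 (0.94), WNT5A (0.92) and LINC00260 (0.91). JAG1 was closest to CYLD (0.91), CTNNB1 (0.88) and RABGAP1 (0.86), and DLL1 to MAGI3 (0.91), UFSP2 (0.90) and COL1A1 (0.89).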

How the data were processed

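RNA of 15 IMR32 samples was measured on Affymetrix arrays. The values deposited are linear signal intensities; the submitters' processing notes name MAS5 and GCOS; version, settings and genome build are not given in the sources used here. Detection calls were not used here. Symbols came from the platform annotation: of 54675 probe sets, 62 array controls aside, 41091 had 1 symbol, 1801 had several and 11721 were not listed, and 41037 of the 41091 matched RefSeq (GRCh38.p14) by Entrez identifier.

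An offset of 5.16, the mean lower quartile of signal, was added before log2. A probe set was testable where its signal reached the array median on at least 3 arrays, which kept 30676. Limma 3.58.1 (R 4.3.3; lmFit and eBayes, two-sided) compared the 5 group means, all arrays sharing 1 estimate of the spread, with Benjamini-Hochberg adjustment over the 30676. The fit was tested on simulated data with known changes. Figures were drawn with matplotlib 3.10.9. The number of arrays limits the precision.

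Members and lists were chosen with earlier results of these data known. Named beyond the members were MSX1, called genes of the fixed Notch list (at most 4 a role), and the 3 nearest profiles of each member called on its leading probe set; RBPJ, LFNG and RFNG, JAG1's second probe set and markers were added after their values were seen. Alternatives covered the offset, scaling, filter, probe sets, variance model, arrays in the fit, replicate number, threshold and leaving out arrays.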

Additional observations from a re-analysis of the deposited data

Results flagged for a closer look

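For 3 member probe sets the change between t = 0 and t = 48 differed between induced and control cells, tested as the difference of the groups at t = 48, with t = 0 shared by both changes. For JAG1 216268_s_at the difference was 1.03, from a change of 1.14 in induced and 0.11 in control cells. This probe set was testable through the induced groups alone, and the leading JAG1 probe set did not pass (limma adjusted p = 0.128). For MAML3 242794_at it was 0.78, from changes of 1.30 and 0.52. For MFNG 204153_s_at it was -0.57, from changes of 0.52 and 1.09, so both groups rose and the induced cells rose less. Groups of 3 arrays are too small for a search for single outlying arrays.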

How the results depend on the processing

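Of 26 called member values, 9 held under every alternative run, 17 were lost under at least 1 and 0 changed direction. The 9 were MAML3 242794_at and JAG1 216268_s_at against control cells at t = 48 and against t = 0 at t = 48, MAML3 and MAML2 against t = 0 at t = 24, MAML2 against t = 0 at t = 48, and MFNG 204153_s_at for t = 24 over t = 0 and for t = 48 over t = 24. Of these, JAG1 216268_s_at was testable through the induced groups alone. The counts of member probe sets called were 3 (induced over control), 4, 7 and 6 (t = 8, 24 and 48 over t = 0), 2 (control over t = 0), 1 (t = 24 over t = 8) and 3 (t = 48 over t = 24). With arrays centred on their medians, the counts were 1 at t = 8 and 3 at t = 48 over t = 0, 1 in control cells, 0 for t = 24 over t = 8 and 1 for t = 48 over t = 24. With no filter they were 1 at t = 8, 1 in control cells, 0 for t = 24 over t = 8 and 1 for t = 48 over t = 24. With 1 leading probe set per gene, they were 2 at t = 8 and 2 for t = 24 over t = 8, over fewer probe sets. With only the groups compared in the fit, which leaves fewer arrays to estimate the spread, they were 0 at t = 8, 3 at t = 24, 0 in control cells, 0 for t = 24 over t = 8 and 1 for t = 48 over t = 24. At a threshold of 0.01 they were 1 at t = 8, 1 in control cells and 0 for t = 24 over t = 8. Without both arrays with weak hybridisation controls the count was 0 for t = 24 over t = 8. Why the counts moved was not tested for any of these alternatives. Leaving out 1 array gave 3 to 4 for induced over control, 1 to 3 at t = 8, 6 to 8 at t = 24 and 4 to 5 at t = 48 over t = 0, 1 to 2 in control cells, 0 to 1 for t = 24 over t = 8 and 2 to 3 for t = 48 over t = 24. Deviations of same-numbered arrays of different groups had a median correlation of 0.015 over 30 pairs (-0.33 to 0.189, 2 above 0.1). Different-numbered arrays had a median of -0.005 over 60 pairs (-0.255 to 0.439, 9 above 0.1). The highest, 0.439, was between induced t = 24 replicate 1 and induced t = 48 replicate 3, the arrays with weak hybridisation controls. The design text states triplicate time courses, so a number may mark the same course, and a pairing is not shown to be absent. With the replicate number as a block, the counts were 3 for induced over control, 3, 6 and 4 at t = 8, 24 and 48 over t = 0, 2 in control cells, 1 for t = 24 over t = 8 and 3 for t = 48 over t = 24. Over all probe sets, the counts, in the order of the comparisons above, were 1574, 339, 1864, 3506, 100, 731 and 691. They were 802, 176, 918, 1930, 28, 219 and 412 with centred arrays, 737, 191, 925, 1958, 33, 268 and 444 with no filter, 790, 5, 436, 1350, 0, 48 and 205 with only the groups compared, and 544, 146, 723, 1335, 29, 211 and 342 at a threshold of 0.01. An intensity trend with a robust prior gave 161 in control cells and 1296 for t = 24 over t = 8, and 1 probe set per gene gave 2331 at t = 48 over t = 0.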
